A study of Mus musculus with 4 samples.

Results

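Of the 7802 genes measured in these samples, 108 carry a solute carrier symbol (Slc followed by a family number, or Slco), and their levels in foregut endoderm and in its neighbouring tissues are described here. A gene was counted as measured when a probe set with a single gene symbol lay above a log2 intensity of 5 on at least 2 of the 4 arrays, and the brightest probe set stood for the gene. The array held 362 solute carrier symbols on 688 probe sets, of which 151 probe sets passed, so 254 of these genes were not measured. The 108 genes were thus chosen by their log2 intensity on the arrays, with no tissue label used, and their levels are a description. Because a gene could also pass through the tissue in which it is bright, the members that passed are not all solute carriers of these tissues.

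The samples were 4 pools of ARC/s mouse embryo tissue taken at embryonic day 8.5 with 4 to 5 somites (3 to 5 in the source labels), each of 15 to 20 tissue pieces. Of these, 2 were labelled foregut endoderm, from the anterior intestinal portal, and 2 were labelled mesoderm and ectoderm, a mix of heart mesoderm with mesoderm and ectoderm of the head. Experiment 1 gave 1 pool of either tissue by hand dissection, and experiment 2 gave 1 of either with trypsin and pancreatin before dissection, so experiment and dissection cannot be told apart. All embryos were of the same strain and the labels name no agent other than these enzymes. One description field calls foregut endoderm 2 ectoderm, whereas its title and tissue label name foregut endoderm.

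Solute carriers are membrane proteins that move nutrients, ions, metals and metabolites across the plasma membrane or the membranes of organelles, without splitting ATP themselves. Glucose enters cells through Slc2 facilitators, lactate and pyruvate pass through Slc16 carriers together with protons, and Slc25 proteins connect the mitochondrial matrix with the cytosol. Epithelia place different carriers on their apical and basal faces, which is how the yolk sac and later the gut take up and pass on nutrients. At early somite stages the embryo grows fast, has no working placental circulation and is known to rely strongly on glucose.

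Marker genes describe how the pools relate to their labels. Of 13 foregut endoderm markers listed, 9 were measured, and all 9 were higher in the endoderm pools by 2-fold or more in both experiments. The same held for all 10 measured epithelial junction genes of 12 listed, and 8 of 10 measured neural plate genes were lower by 2-fold or more. Of the 13 measured heart muscle genes of 16 listed, 12 were higher in endoderm by 2-fold or more in experiment 1 and at least 2-fold lower in experiment 2. Over all 16 listed, the log2 of the summed intensity was 13.88 and 10.35 in the endoderm pools of experiments 1 and 2, and 7.30 and 16.85 in the other pools. The pool labelled mesoderm and ectoderm 1 was thus low in heart muscle genes, against its label, and Tnnt2, the cardiac troponin T, was at 10.85 and 3.16 in endoderm and 2.51 and 14.20 in the other tissue in experiments 1 and 2. The same reversal was seen in 5 of 6 measured endothelial genes and in both measured red blood cell genes of 10 listed. Of 8 measured head and trunk mesenchyme genes, 2 were higher in endoderm in both experiments and 3 reversed. Of 14 yolk sac visceral endoderm genes 6 were measured, 4 higher and 1 lower in endoderm in both experiments, and the log2 of the summed intensity of all 14 was 11.41 and 12.57 in endoderm and 9.56 and 9.73 in the other tissue. In bulk samples, fewer cells of a type and less RNA per cell cannot be told apart.

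Pairs of values below give experiment 1 first and experiment 2 second, and differences are log2 intensity in endoderm minus that in mesoderm and ectoderm of the same experiment. Intensities of different probe sets are not comparable as amounts of RNA, so levels are set against each other only within a gene.

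Between the tissues, 9 of the 108 solute carrier genes were at least 2-fold higher in foregut endoderm in both experiments, which is 8.33%, against 3.54% of all genes measured. None was at least 2-fold lower in both, against 1.24% of all genes. None was at least 2-fold higher in endoderm in experiment 1 and lower in experiment 2, against 1.96%, or the reverse, against 0.0641%. Over all genes 276 were higher and 97 lower in both, a share of 74% higher that became 62% after quantile normalization and 58.8% after median centring. The 9 genes were Slc16a1 and Slc16a12 of the monocarboxylate carrier family, the metal carriers Slc39a8 and Slc31a1, the choline carriers Slc44a1 and Slc44a2, the sodium-linked sugar carrier Slc5a9, the organic anion carrier Slco4c1 and Slc22a23, a member of the organic ion carrier family with no settled substrate. Another 14 genes were 2-fold apart in 1 experiment only, which is 13% against 16.9% of all genes. The other 85 stayed under 2-fold in both, which is 78.7% against 76.3% of all genes. The plot of tissue differences in each experiment shows most members between the 2-fold lines. The 9 genes were picked by these lines and are no separate group. Slc25a30 (0.99 and 2.45) and Slc9a3r1 (0.93 and 1.46) lay just short of a line.

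**Figure D1:**
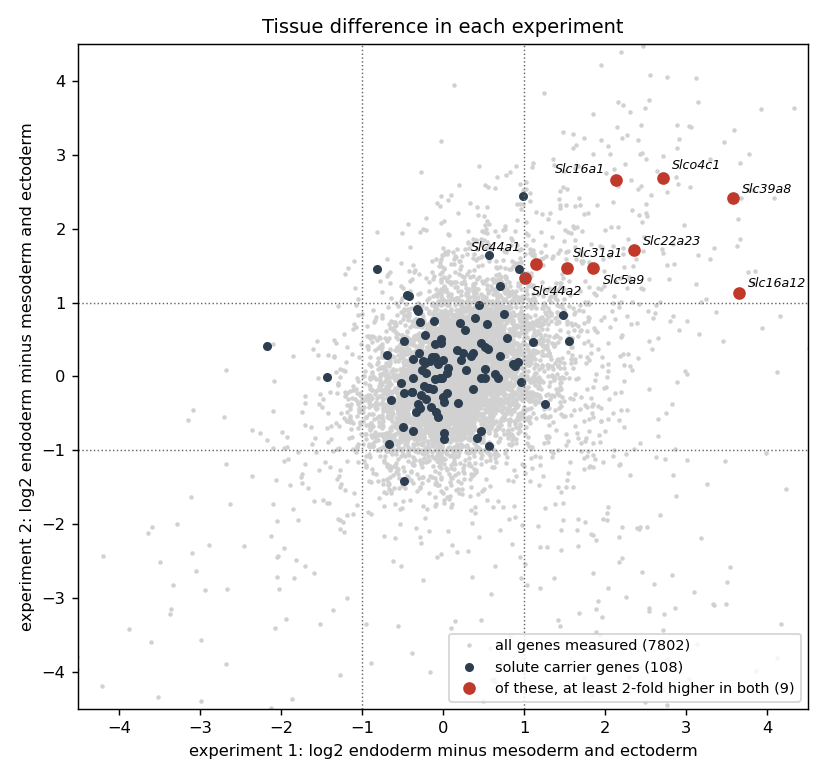
Log2 intensity in foregut endoderm minus mesoderm and ectoderm in experiment 1 (x axis) and experiment 2 (y axis), for all 7802 genes measured (grey), the 108 solute carrier genes (dark) and the 9 of them at least 2-fold higher in both (red, named). Dotted lines mark 2-fold, 63 genes that are no members fall outside the axes, and no member lies in the lower left corner past both lines.

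None of these differences passed a test across all genes. With limma and Benjamini-Hochberg adjustment, 0 of 7802 genes (0.0%) and 0 of 13288 probe sets (0.0%) passed the threshold of 0.05, and the lowest adjusted p among genes was 0.475, that of Slco4c1 among others. At an unadjusted p under 0.05 limma listed 353 genes, 4.52% of all, and 5 of the 108 members (4.63%), all higher in endoderm: Slco4c1, Slc16a1, Slc22a23, Slc44a1 and Slc31a1. With the experiment as a replicate block limma called 0 genes as well, the lowest adjusted p was 0.223, and 902 genes (11.6%) and 14 members (13%) had an unadjusted p under 0.05. Slco4c1 and Slc22a23 were above the filter on the endoderm arrays alone, so their selection already favoured a difference and their p supports nothing. Nothing says that pools of the same tissue came from separate litters, so these p-values measure only the spread between the pools.

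Slc16a1 encodes monocarboxylate transporter 1, a proton-linked carrier of lactate, pyruvate and ketone bodies. Its log2 intensity was 12.92 and 13.44 in endoderm and 10.78 and 10.79 in the other tissue. The other tissue was level between the experiments, and both endoderm pools lay above it. The difference of 2.40 ± 0.35 (SE) is 5.26-fold, with limma's adjusted p of 0.519. Slc16a12, which carries creatine, was at 7.10 and 7.06 in endoderm and 3.45 and 5.93 in the other tissue. The endoderm pools hardly differed, and it was mesoderm and ectoderm that lay far apart, so the difference was 3.65 and 1.13, or 2.39 ± 0.95 (SE) over both. Of the other measured family members, Slc16a13 was at 5.59 and 5.83 in endoderm and 5.81 and 5.78 in the other tissue, with no more than 0.22 between tissues. Slc16a3, monocarboxylate transporter 4, which serves lactate export from glycolytic cells, was at 4.54 and 6.27 in endoderm and 5.04 and 6.95 in the other tissue and so slightly lower in endoderm in both experiments (-0.50 and -0.68). The family therefore held genes on both sides, with 2 of 4 past 2-fold.

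Partner proteins of carriers were listed beside the family. Emb, the gene of embigin, a glycoprotein that accompanies monocarboxylate transporters to the plasma membrane, was at 10.68 and 12.07 in endoderm and 9.0 and 9.75 in the other tissue. Both endoderm pools lay above the others, by 1.69 and 2.32, and Emb was the only 1 of 6 measured partner genes at least 2-fold apart in both experiments. Bsg, the gene of basigin, which does the same for Slc16a1 and Slc16a3, was at 6.88 and 8.81 in endoderm and 5.6 and 8.42 in the other tissue. Its tissue difference shrank from 1.28 to 0.39, and its level moved more between the experiments than between the tissues.

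Among metal carriers, Slc39a8 (ZIP8, an importer of zinc and manganese) was at 9.41 and 10.83 in endoderm and 5.83 and 8.42 in the other tissue. Endoderm lay above the other tissue in both experiments, by 3.58 and 2.41, while both tissues were higher in experiment 2. The fit without a block gave 3.00 ± 1.11 (SE), a 7.98-fold difference with an unadjusted p of 0.0573 and an adjusted p of 1.00 (limma). With the experiment as a block the SE was 0.40 and limma's adjusted p was 0.304. The groups did not overlap. Slc31a1 (CTR1, the copper importer of the plasma membrane) was at 8.53 and 9.23 in endoderm and 7.0 and 7.76 in the other tissue, a difference of 1.5 ± 0.47 (SE). Its differences within the experiments, 1.53 and 1.47, were almost the same size. The other 11 metal carriers stayed under 2-fold in both experiments. Slc39a10, a zinc importer and the brightest of the class, was at 11.65 and 10.99 in endoderm and 11.89 and 11.12 in the other tissue. Slc39a6 and Slc39a7, importers of the plasma membrane and the secretory pathway, differed by 0.01 and -0.34 and by 0.51 and 0.40. Slc30a1, the zinc exporter of the plasma membrane, differed by -0.37 and -0.03, and Slc39a14, the close relative of Slc39a8 that also carries manganese and iron and passed the filter through the other tissue alone, by -0.34 and -0.49. The median difference of the 13 metal carriers was 0.0098 and -0.02, so most of the class lay near even.

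Choline carriers and carriers of vitamins formed a class of 5. Slc44a1, a choline transporter of the plasma membrane and mitochondria, was at 9.02 and 9.18 in endoderm and 7.89 and 7.65 in the other tissue. The pools of a tissue lay close together, and the difference was 1.33 ± 0.31 (SE, limma's adjusted p 0.818). Slc44a2, its relative, was at 9.77 and 11.26 in endoderm and 8.76 and 9.93 in the other tissue. Foregut endoderm 1 lay below mesoderm and ectoderm 2, so the tissues overlapped across experiments, although each experiment differed by 1.01 and 1.33. Slc19a2, the thiamine importer, was at 5.77 and 7.07 in endoderm and 5.19 and 5.42 in the other tissue, past 2-fold in experiment 2 only. Slc5a3, which takes up myo-inositol with sodium, was at 9.45 and 9.01 in endoderm and 8.69 and 8.17 in the other tissue, differing by 0.76 and 0.84. Slc19a1, the reduced folate carrier, was at 7.40 and 6.92 in endoderm and 7.50 and 6.95 in the other tissue and differed least. The class median was 0.76 and 1.33, against 0.15 and 0.0079 for all genes measured.

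**Figure D2:**
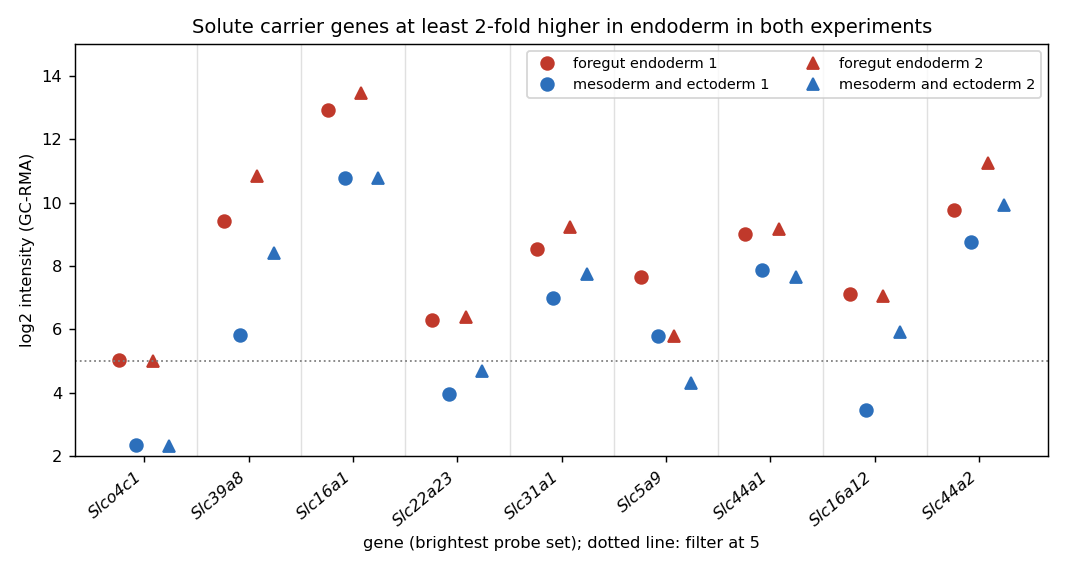
Log2 intensity (y axis) on each of the 4 arrays for the 9 genes at least 2-fold higher in endoderm in both experiments, with circles for experiment 1, triangles for experiment 2, red for foregut endoderm and blue for mesoderm and ectoderm. Within each experiment red lies above blue, and for Slc5a9 and Slc44a2 the shift between experiments is about as large as that between tissues. For Slc39a8 and Slc16a12 blue moved between experiments by 2.59 and 2.48. These shifts lie between the tissue differences of experiment 2 (2.41 and 1.13) and those of experiment 1 (3.58 and 3.65).

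Of 7 sugar carriers 1 was past 2-fold in both experiments. Slc2a1 (GLUT1), the facilitator that brings glucose into most embryonic cells, was at 14.04 and 14.04 in endoderm and 13.87 and 13.68 in the other tissue. These 4 values lay within 0.36 of each other, and its dimmer probe sets above the filter differed by -0.01 and 0.68 and by 0.91 and 0.32. Slc2a3 (GLUT3), a high-affinity glucose facilitator, was at 13.23 and 13.82 in endoderm and 12.78 and 12.86 in the other tissue, higher in endoderm by 0.45 and 0.96. Both stayed under 2-fold by their brightest probe set. A dimmer probe set of Slc2a3 was at 6.87 and 5.24 in endoderm and 4.70 and 3.03 in the other tissue, past 2-fold in both experiments (2.16 and 2.21), whereas the other one above the filter differed by 0.27 and 0.98. Slc5a9 (SGLT4), a sodium-linked carrier of mannose and fructose, was at 7.66 and 5.79 in endoderm and 5.81 and 4.33 in the other tissue. It was higher in endoderm within each experiment, by 1.85 and 1.47, but foregut endoderm 2 and mesoderm and ectoderm 1 were at the same level, so the tissues overlapped. Slc5a2 (SGLT2), the renal glucose carrier, was at 5.78 and 5.39 in endoderm and 5.88 and 5.12 in the other tissue. Slc45a4 was past 2-fold in experiment 1 only (1.11 and 0.47), and Slc37a3, a sugar-phosphate carrier by family, was slightly lower in endoderm (-0.27 and -0.25).

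The class of organic anions, organic cations, bile acids and lipids had 5 measured members, 2 of them among the 9. Slc22a23 was at 6.30 and 6.41 in endoderm and 3.95 and 4.70 in the other tissue, a difference of 2.03 ± 0.40 (SE), and it passed the filter through endoderm alone, as did Slco4c1. Slco4c1 was at 5.05 and 5.00 in endoderm and 2.34 and 2.32 in the other tissue, and both mesoderm and ectoderm values were within 0.1 of the lowest level on the array. The fitted difference of Slco4c1 was 6.49-fold, at a level just above the filter, and its size depends on how values near the lowest level are treated. With a pseudocount of 16 added to each intensity before log2, the differences were 1.22 and 1.20. Slc10a7, a relative of bile acid carriers needed for skeletal development, was at 7.58 and 7.23 in endoderm and 7.06 and 7.13 in the other tissue. Slco3a1 was higher in endoderm in experiment 1 and lower in experiment 2 (0.57 and -0.94), and Slco5a1 differed by -0.10 and 0.44.

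The 9 differences rest mostly on single probe sets. Of the 9 genes only Slc44a2 had another probe set above the filter, and it was higher in endoderm by 1.45 and 1.20. The dimmer probe sets of Slc31a1 differed by 0.15 and 1.44, of Slc16a1 by 0.53 and 1.38 and of Slc39a8 by 1.01 and -0.01, all at log2 intensities under 5. The second probe set of Slco4c1 (-0.03 and 0.34) and the dimmest of Slc44a2 (-0.03 and 0.42), also under 5, were near even in experiment 1. The 3 other probe sets of Slc5a9 lay at the lowest level on all 4 arrays, and the 3 others of Slc44a1 at or near it. The probe set used for Slc5a9 carries the suffix _s_at, given to those whose probes match several transcripts, and that for Slc44a2 the suffix _x_at, given to those with probes that can bind other sequences. Over all members, 37 of 43 further probe sets had the same sign of mean difference as the brightest, and 6 the opposite. Of these 43, 5 were past 2-fold in both experiments, all higher in endoderm, in Slc44a2 and in 3 genes outside the 9 (Slc2a3, Slc12a2 and Slc9a3r1).

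Single pools were left out in turn, those that stand against their labels included. The lone pool of a tissue then served both comparisons, so 1 of them crossed the experiments. Whether a gene lost in this way leans on 1 pool or shifted between the experiments cannot be told apart here. Slc31a1, for example, differed by 1.53 and 1.47 within the experiments. It was higher in experiment 2 by 0.70 in endoderm and 0.76 in the other tissue. Without mesoderm and ectoderm 1, low in heart muscle genes, 6 of the 9 were still at least 2-fold higher in both, and Slc31a1, Slc39a8 and Slc44a2 were not, at 0.77, 0.99 and -0.17 against foregut endoderm 1. Without foregut endoderm 1, high in heart muscle genes, 8 remained and Slc5a9 did not (-0.01 against mesoderm and ectoderm 1). Without foregut endoderm 2, 6 of the 9 remained, again without Slc31a1, Slc39a8 and Slc44a2. Without mesoderm and ectoderm 2, 8 remained, and Slc5a9 did not. Slc16a1, Slc22a23, Slc44a1, Slc16a12 and Slco4c1 were past 2-fold in each of these 4 cases. Slc22a23 and Slco4c1 had passed the filter through endoderm alone, so their selection already favoured this and it supports nothing for them. The tissue difference of Slc16a12 ran from 1.15 to 3.63 and that of Slc39a8 from 1.70 to 4.29. The 9 genes were higher in the same pools as the measured endoderm and epithelial markers and 4 of the 6 measured yolk sac markers given above. The part of these markers' tissues in the differences was not tested.

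Promoter sequence is shown for Slc16a1, Slc39a8, Slc31a1 and Slc44a1, genes that were higher in endoderm together and not near the filter. Each run is the 250 bases before the first listed transcription start in RefSeq's table for GRCm38.p6, written 5′ to 3′ along the gene, and capitals mark GC boxes (GGGCGG or its reverse complement CCGCCC, which overlap in places). Slc39a8 has none in this window, and it and Slc44a1 also have later start sites in the table.
Slc16a1 (chr3:104638414-104638663, plus strand): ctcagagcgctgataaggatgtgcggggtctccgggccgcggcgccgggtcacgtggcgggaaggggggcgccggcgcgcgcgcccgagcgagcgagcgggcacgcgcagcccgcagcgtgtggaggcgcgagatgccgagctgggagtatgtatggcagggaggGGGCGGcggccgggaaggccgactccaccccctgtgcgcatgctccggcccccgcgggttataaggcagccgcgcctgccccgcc
Slc39a8 (chr3:135825029-135825278, plus strand): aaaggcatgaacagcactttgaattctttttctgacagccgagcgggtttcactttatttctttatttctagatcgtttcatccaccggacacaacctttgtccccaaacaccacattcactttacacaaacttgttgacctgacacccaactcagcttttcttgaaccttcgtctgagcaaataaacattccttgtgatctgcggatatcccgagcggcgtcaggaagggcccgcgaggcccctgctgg
Slc31a1 (chr4:62360451-62360700, plus strand): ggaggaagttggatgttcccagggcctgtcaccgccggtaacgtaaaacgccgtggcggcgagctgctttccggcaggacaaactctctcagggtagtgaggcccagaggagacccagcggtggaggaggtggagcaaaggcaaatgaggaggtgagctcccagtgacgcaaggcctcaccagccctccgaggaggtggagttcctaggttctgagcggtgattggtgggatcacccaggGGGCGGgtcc
Slc44a1 (chr4:53440163-53440412, plus strand): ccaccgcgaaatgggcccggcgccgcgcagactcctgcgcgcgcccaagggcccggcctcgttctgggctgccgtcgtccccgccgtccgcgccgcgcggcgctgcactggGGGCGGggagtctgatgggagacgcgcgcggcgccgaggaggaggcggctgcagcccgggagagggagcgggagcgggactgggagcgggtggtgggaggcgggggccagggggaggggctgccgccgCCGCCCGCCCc
The table held 8 of the 9 genes and 81 of the 108 members. A GC box stood in 6 of the 8, in 62 of the 81 members (76.5%) and in 32.9% of the 27025 genes of the table, which also lists noncoding genes. Median GC content was 64.6% in the 8, 63.6% in the 81 and 52% in the whole table. The forkhead words TGTTTAC and TATTTAC, searched on both strands, were in 0 of the 8 and 0 of the 81 windows, against 3.09% and 2.75% of the table, and TATAAA was in 0 of the 8 and 4 of the 81 (4.94%), against 13%. These counts describe letters in a short window and say nothing of what binds there. The members had passed the intensity filter, the genes of the table had not been filtered, and the measured genes were not counted apart. The gaps to the table can therefore not be read as a trait of solute carriers.

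By the brightest probe set, the remaining classes had no member past 2-fold in both experiments. Of the genes named from here on, those that are not the brightest of their class were chosen after their values were seen. Amino acid and peptide carriers, 20 genes with median differences of 0.11 and 0.22, included 16 that stayed under 2-fold in both. Slc38a2 (SNAT2), a sodium-linked importer of small neutral amino acids, was at 12.36 and 11.79 in endoderm and 12.01 and 11.51 in the other tissue. Slc7a5, which exchanges large neutral amino acids, was at 6.05 and 6.50 in endoderm and 6.30 and 6.29 in the other tissue, and its heavy chain partner Slc3a2 at 5.90 and 6.10 in endoderm and 6.12 and 6.41 in the other tissue. Neither differed by more than 0.32 in any experiment. Slc38a4, an imprinted amino acid carrier of the same family as Slc38a2, was higher in endoderm in experiment 1 and slightly lower in experiment 2 (1.26 and -0.37). Slc1a4 and Slc1a5, exchangers of alanine, serine, cysteine and glutamine, were lower in endoderm, with differences of -0.49 and -1.42 and of -0.15 and -0.41. Slc15a2, a peptide importer, stood out in a single pool, at 7.0 in mesoderm and ectoderm 1 and between 4.67 and 5.08 in the other pools. Slc6a6, the taurine carrier, and Slc6a8, the creatine carrier, were higher in endoderm by 0.86 and 0.17 and by 0.54 and 0.72.

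Mitochondrial carriers were the largest class, with 26 genes, of which 22 stayed under 2-fold in both experiments. Slc25a3, the phosphate carrier that feeds ATP synthesis, was at 13.17 and 12.84 in endoderm and 13.55 and 13.05 in the other tissue. The ADP/ATP exchangers Slc25a4 and Slc25a5 were at 12.79 and 13.21 in endoderm and 12.55 and 12.90 in the other tissue and at 13.40 and 12.29 in endoderm and 13.39 and 13.05 in the other tissue. These genes are close in sequence, so how their probe sets split the signal is uncertain. Of the dimmer probe sets of Slc25a4 above the filter, both were higher in endoderm in experiment 1 and lower in experiment 2 (1.02 and -0.88, 0.50 and -0.50). The 7 of Slc25a5 were all lower in endoderm, from -0.61 to -0.08 in experiment 1 and from -1.44 to -0.93 in experiment 2. Slc25a1, the citrate exporter, and Slc25a11, the oxoglutarate carrier, were lower in endoderm, with differences of -0.29 and -0.42 and of -0.37 and -0.74. Slc25a20, which brings acylcarnitines into mitochondria for fatty acid oxidation, was at 7.71 and 8.43 in endoderm and 6.16 and 7.94 in the other tissue, and the gap was mainly in experiment 1 (1.55 and 0.49). Slc25a37 (mitoferrin 1), an iron importer of mitochondria, was higher in endoderm by 0.79 and 0.52. Slc25a30, a carrier related to uncoupling proteins, was at 7.73 and 5.54 in endoderm and 6.74 and 3.10 in the other tissue. It was higher in endoderm in both experiments but just missed 2-fold in the first. Slc25a17, the peroxisomal member of the family, differed by -0.82 and 1.46, opposite in the experiments.

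Carriers of nucleotide sugars and their Slc35 relatives, 14 genes, were close to even, with medians of -0.12 and -0.02. Slc35a2, the Golgi importer of UDP-galactose, was at 10.95 and 11.67 in endoderm and 11.01 and 11.50 in the other tissue. Slc35b1, an ATP importer of the endoplasmic reticulum, was at 8.22 and 8.34 in endoderm and 8.90 and 9.26 in the other tissue, lower in endoderm (-0.67 and -0.92) with no overlap. Slc35g1 was at 6.30 and 5.42 in endoderm and 7.73 and 5.43 in the other tissue, high in mesoderm and ectoderm 1 alone. Of 7 carriers of inorganic ions, Slc20a1, a sodium-linked phosphate importer, was at 9.06 and 8.86 in endoderm and 9.15 and 9.35 in the other tissue. Slc12a2 (NKCC1), which loads epithelial cells with chloride, was at 9.64 and 9.52 in endoderm and 8.94 and 8.30 in the other tissue, with no overlap between the tissues and a difference of 0.96 ± 0.37 (SE). Its 2 dimmer probe sets above the filter were past 2-fold in both experiments, at 1.07 and 3.24 and at 1.38 and 1.29, and so was the gene when its probe sets were averaged. Its relatives Slc12a4 and Slc12a7, which carry potassium and chloride out of cells, differed by 0.55 and 0.37 and by -0.32 and 0.91. Slc33a1, which brings acetyl-CoA into the endoplasmic reticulum, was at 6.69 and 6.50 in endoderm and 6.68 and 6.79 in the other tissue.

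A further 4 symbols belong to proteins that are not carriers themselves. Slc9a3r1 (NHERF1), a scaffold that anchors carriers at the apical face of epithelia, was at 9.79 and 10.69 in endoderm and 8.86 and 9.23 in the other tissue, and Slc9a3r2, its relative, at 5.87 and 6.74 in endoderm and 4.39 and 5.90 in the other tissue. Both were higher in endoderm in both experiments and past 2-fold in 1 of them, and a dimmer probe set of Slc9a3r1 was past 2-fold in both (1.11 and 1.45). Slc7a6os and Slc4a1ap, named after neighbouring or bound carriers, differed by -0.19 and -0.16 and by 0.19 and -0.36.

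**Figure D3:**
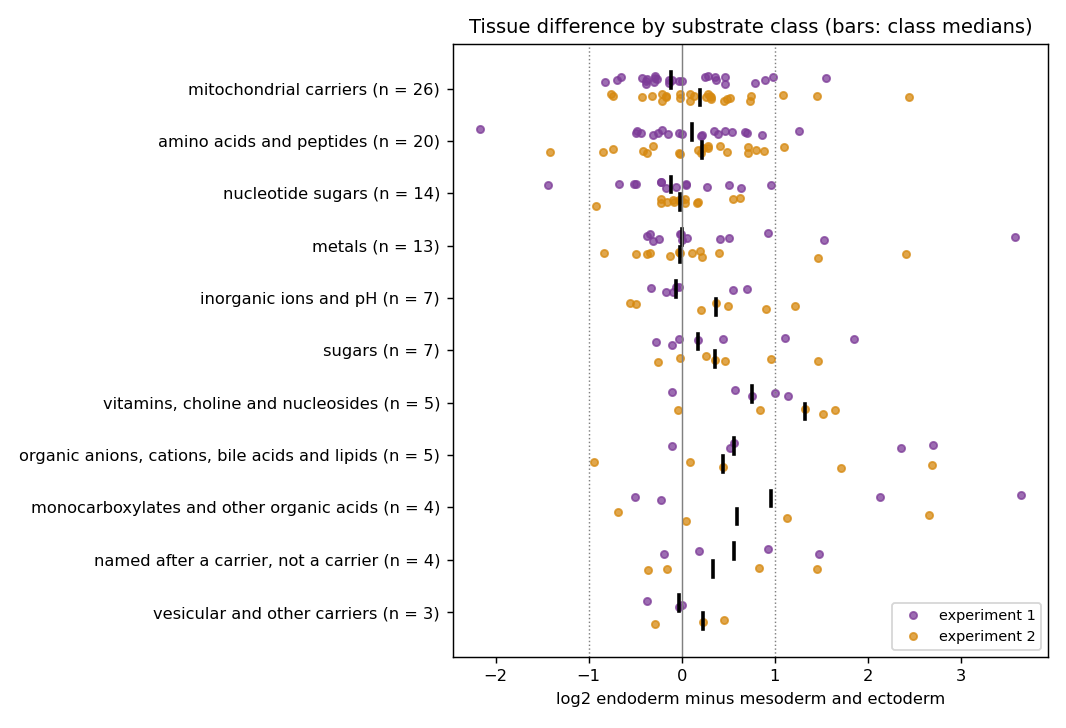
Log2 intensity in endoderm minus mesoderm and ectoderm (x axis) for each of the 108 genes, by substrate class (rows) and experiment (colours), with class medians as black bars and dotted lines at 2-fold. The classes of choline and vitamins, organic anions, monocarboxylates and proteins that are not carriers have 4 or 5 genes each. Their medians lie right of 0 in both experiments, also after median centring and quantile normalization. Of the organic anion class, Slco4c1 and Slc22a23 passed the filter through endoderm alone. The large classes centre near 0 in the values shown. After median centring, mitochondrial carriers and nucleotide sugars both had a median of -0.36 in experiment 1.

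Scaling moved small differences. Median centring of the arrays lowered every difference by 0.24 in experiment 1 and 0.12 in experiment 2, and quantile normalization lowered the members' differences by a median of 0.22 and 0.11. Differences that changed side under either scaling were at most 0.22 in size in experiment 1 and 0.13 in experiment 2, as in Slc2a1 in experiment 1 (median centring) and in Slc10a7, Slc16a13 and Slc39a10 in experiment 2. The medians of the amino acid class in experiment 1 turned negative under both scalings (-0.13 and -0.10), that of sugars in experiment 1 under median centring (-0.07), and that of metals in experiment 1 under both (-0.23 and -0.13). Already below 0 in experiment 1, the medians of mitochondrial carriers and nucleotide sugars both fell to -0.36 with median centring. With quantile normalization they were -0.24 and -0.29. Over all members the experiment 1 median was -0.24 and -0.19 under these scalings. The medians of choline and vitamins, organic anions, monocarboxylates and non-carriers stayed above 0 in both experiments under both. For organic anions, Slco4c1 fell below the filter after quantile normalization, and the median of the 4 genes left was 0.30 and 0.12. In this class Slco4c1 and Slc22a23 had passed the filter through endoderm alone, so selection already favoured a median above 0.

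Over all 108 members the median difference was 0.0049 in experiment 1 and 0.19 in experiment 2, against 0.15 and 0.0079 for all genes. Both endoderm pools lay above both others in 22 members (20.4%), against 18.2% of all genes, and below both in 17 (15.7%), against 9.69%. Of these 17, 4 (Slc6a9, Slc25a28, Slc45a1 and Slc30a5) differed by no more than 0.04 between any pools once each array's lowest value was taken off. Without these 4, values for Slc1a4, Slc35b1 and Slc25a11 were the lowest in endoderm among the 17, at mean differences of -0.95, -0.79 and -0.55.

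Other genes of solute transport were given from a list. Of 6 measured carriers with no Slc symbol, 0 were at least 2-fold apart in both experiments. Ank, a pyrophosphate exporter, was higher in endoderm by 1.00 and 0.76 and Flvcr1, a choline and heme carrier, lower (-0.66 and -0.70). Of 3 measured sodium pump subunits and regulators, Atp1b1, a beta subunit, differed by 0.82 and -1.93, with the same signs as the heart genes. Tfrc, the transferrin receptor that supplies cells with iron, was at 10.83 and 11.48 in endoderm and 10.79 and 11.21 in the other tissue, and Fth1, the ferritin heavy chain, at 11.55 and 13.43 in endoderm and 11.46 and 13.74 in the other tissue. Fth1 moved more between the experiments than between the tissues.

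The experiments, which differed in dissection, can be compared in the same genes as experiment 2 minus experiment 1. Of the 108 members, 5 (4.63%) were at least 2-fold higher in experiment 2 in both tissues, against 11.2% of all genes, and 6 (5.56%) at least 2-fold lower, against 4.87%. Limma with tissue as a term called 0 genes (0.0%) at an adjusted p under 0.05, with a lowest adjusted p of 0.102, while 2348 genes (30.1%) and 25 members (23.1%) had an unadjusted p under 0.05. This count moved with the scaling: after quantile normalization limma called 787 genes (10.1%) and 5 members (4.72%), namely Slc16a3 and Slc39a8 as higher and Slc25a30, Slc38a10 and Slc5a9 as lower, and after median centring 641 genes (8.22%) and the same members except Slc39a8.

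Slc16a3 was higher in experiment 2 by 1.73 in endoderm and 1.91 in the other tissue. Slc25a39, which brings glutathione into mitochondria, was at 9.98 and 11.47 in endoderm and 9.62 and 11.15 in the other tissue, higher by 1.49 in endoderm and 1.54 in the other tissue. Slc35c2, a Golgi relative of the GDP-fucose carrier, differed by 1.24 in endoderm and 1.24 in the other tissue. Slc39a8 and Slc44a2, higher in endoderm within each experiment, were both higher in experiment 2 as well. On the other side, Slc25a30 had shifts of -2.18 in endoderm and -3.65 in the other tissue. Slc25a27 (UCP4) and Slc25a53, of the same family, were lower too, with shifts of -1.28 in endoderm and -2.79 in the other tissue and of -1.01 in endoderm and -2.03 in the other tissue. Slc38a10 was at 10.02 and 8.42 in endoderm and 9.63 and 7.62 in the other tissue, Slc26a2, the sulfate carrier of cartilage, at 7.11 and 5.52 in endoderm and 7.17 and 6.07 in the other tissue, and Slc5a9 had shifts of -1.87 in endoderm and -1.48 in the other tissue.

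**Figure D4:**
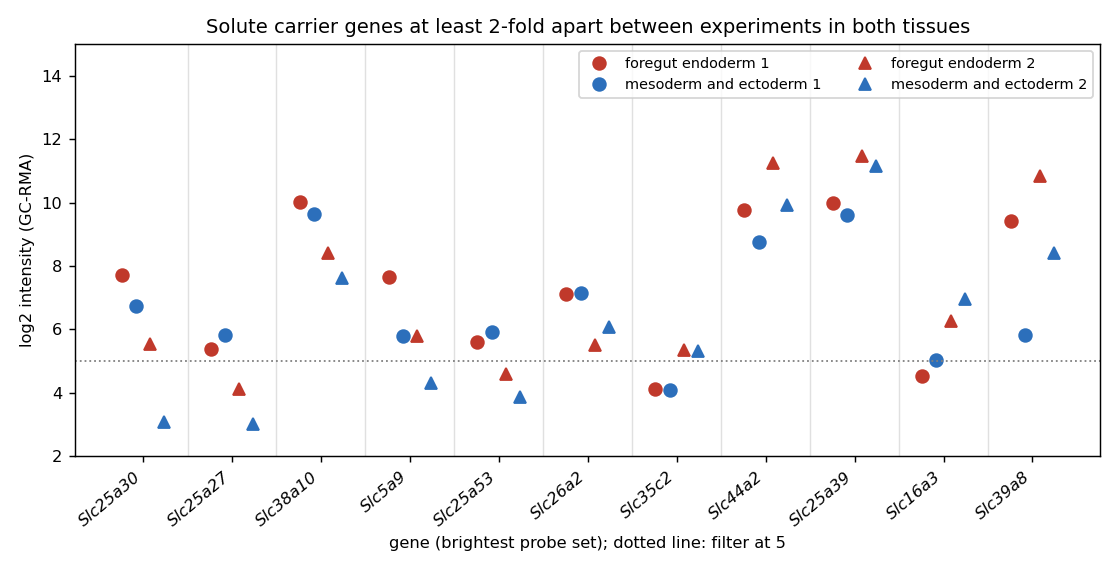
Log2 intensity (y axis) on each of the 4 arrays for the 11 genes at least 2-fold apart between experiments in both tissues, ordered by the mean shift, with circles for experiment 1, triangles for experiment 2, red for foregut endoderm and blue for mesoderm and ectoderm. Triangles lie below circles of the same colour in the first 6 genes and above them in the last 5.

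At the filter, the members just inside were Slco4c1, Slc45a1 and Slc25a32, with second highest log2 values of 5.00, 5.01 and 5.06. Just outside were Slc50a1, a sugar carrier, Slc4a4, a bicarbonate carrier, and Slc66a2, at 5.00, 4.88 and 4.84.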

How the data were processed

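The deposited table holds intensity values per probe set, which the authors normalized by GC-RMA using GenePattern, as the series' design states. The submitters' processing notes name RMA; no version is stated in the sources used here. Amplification was linear in 2 rounds, per the series' design. The values ran from 4.75 to 75547 and were read as linear. Between 41.4% and 44.8% of probe sets lay within 0.1 log2 units of their array's lowest value. Only 2 arrays per tissue limit the precision.

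Here values were set to at least 1 and log2 was taken; controls were left out. GEO's platform annotation named the probe sets, and all 108 members matched a RefSeq gene identifier. Tissues were compared over all genes with limma 3.58.1 in R 4.3.3 (lmFit, eBayes, two-sided, Benjamini-Hochberg, threshold 0.05), without a block, and scripts were tested on simulated data. Standard errors come from this fit, which leaves out the pairing of pools within an experiment. With the experiment as a block they were smaller for the genes higher in endoderm in both experiments, such as 0.40 for Slc39a8 and 0.21 for Slc31a1. Same-numbered pools shared dissection per the labels' protocols and are pairs; across genes their deviations correlated at 0.47. Alternatives were other filters, scalings, a pseudocount, averaged probe sets, the block and leaving out each array. Columns of other samples numbered 0. Members, substrate classes and lists were chosen with earlier results of these data known, and 3 genes (Slc66a1, Slc49a4, Slc4a1ap) were placed in a class after their values were seen. Genes named by rule were those at least 2-fold apart in both experiments, the brightest of each class, the 3 on either side of the filter, and family neighbours. Other members were named outside these rules, among them those of the remaining classes that were chosen after their values were seen.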

Additional observations from a re-analysis of the deposited data

How the results depend on the processing

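The count of 9 genes higher in endoderm in both experiments ran from 6 to 10 under the other filters, scalings, pseudocount and averaged probe sets, and from 7 to 10 on leaving out 1 array at a time. The share of all genes moved as well, and in some settings the members lay nearer to it. Without a filter 2.76% of solute carrier genes were higher, against 1.81% of all genes. The shares were 6.48% against 4.7% without foregut endoderm 2, and 9.26% against 7.28% without mesoderm and ectoderm 2. Slc44a1 and Slc44a2 were under 2-fold in experiment 1 after median centring (7 left) and after quantile normalization (6 left), where Slco4c1 fell below the filter. The others of the 9 kept 2-fold there, Slc16a12 barely so in experiment 2, at 1.02 and 1.00. With the pseudocount of 16 the count was also 6. Slc16a12 (2.51 and 0.96), Slc5a9 (1.60 and 0.99) and Slc44a2 (0.98 and 1.31) then fell just short of 2-fold in 1 experiment. Over all genes the split moved from 276 higher and 97 lower to 204 and 143 with median centring and 217 and 133 with quantile normalization, as the median of all genes went from 0.09 to -0.09 and -0.02. The count lower in both, 0, was between 0 and 2 on leaving out 1 array (Slc1a4 without mesoderm and ectoderm 1, Slc15a2 and Slc35g1 without mesoderm and ectoderm 2). Slc25a17 was the 1 gene lower in experiment 1 and higher in experiment 2 with quantile normalization, and also the 1 with median centring; without 1 array this count was between 0 and 3. The members' median of 0.14 was -0.0238 without a filter, 0.00098 with quantile normalization and -0.0410 with median centring, and lay between -0.0227 and 0.24 without 1 array. Between tissues limma called 0 probe sets and 0 genes under all alternatives run, the replicate block included (lowest adjusted p 0.351 for probe sets and 0.223 for genes). Between experiments it called 0 probe sets as deposited, 912 after quantile normalization and 423 after median centring; leaving out an array there leaves no residual degrees of freedom and was not run.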

Other observations

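Among the 254 solute carrier genes below the filter, 10 lay above a log2 intensity of 5 on exactly 1 array, 5 of them on foregut endoderm 2 and 4 on mesoderm and ectoderm 2. Slc8a1 (NCX1), the sodium-calcium exchanger of heart muscle, was at 3.51 and 2.27 in endoderm and 2.65 and 6.19 in the other tissue, experiment 1 first. The summed heart muscle genes were likewise highest in mesoderm and ectoderm 2 and next in foregut endoderm 1, but lowest in mesoderm and ectoderm 1, where Slc8a1 was lowest in foregut endoderm 2. Slc40a1 (ferroportin), the iron exporter of cells, was at 4.06 and 6.06 in endoderm and 2.96 and 2.87 in the other tissue, and would join the 9 genes at least 2-fold higher in endoderm in both experiments if 1 array above 5 were enough. Slc25a38, the mitochondrial glycine carrier of heme synthesis, was at 3.17 and 4.07 in endoderm and 3.23 and 5.17 in the other tissue. Every probe set of 120 solute carrier genes lay at the lowest level on all 4 arrays.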
